A study of Homo sapiens with 6 samples.

Results

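NLRC5, HLA-B, HLA-C, HLA-E, HLA-F, B2M, TAP1, TAP2 and TAPBP carry out and control antigen presentation by MHC class I. Their surroundings were followed through peak lists of chromatin accessibility. The lists came from ATAC-seq, which reads out DNA that a transposase can reach, of ARP1, a human multiple myeloma cell line. The study set 3 libraries of ARP1 with a KDM6A knockout beside 3 of KDM6A wild-type ARP1, to ask how KDM6A regulates accessibility; KDM6A removes the repressive methyl marks on lysine 27 of histone H3. No treatment, other allele or time point separates the libraries, and the labels do not give the cultures or knockout clones behind the 3 numbered libraries of a genotype, so the spread between them, and any p-value from it, may be technical. In bulk ATAC-seq fewer cells with an open site and a less open site in every cell cannot be told apart. Peaks of the 6 lists that shared at least 1 bp were merged into 75701 regions. Every region over one of the 9 genes (GRCh38 positions from RefSeq) or within 50 kb of either end was taken, whatever its value. This gave 54 regions, of which 34 lie on chromosome 6, 6 around B2M on chromosome 15 and 14 around NLRC5 on chromosome 16.

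Class I molecules display peptides from inside the cell to CD8 T cells. The heavy chains HLA-B and HLA-C, and the less variable HLA-E and HLA-F, pair with the light chain B2M. TAP1 and TAP2 form the transporter that brings peptides into the endoplasmic reticulum, and TAPBP (tapasin) bridges it to the waiting heavy chain. NLRC5 enters the nucleus and, together with the RFX complex, CREB family factors and NF-Y, acts on a promoter module of class I genes made of an S, an X and a Y box. Nearby elements bind NF-kB and interferon regulatory factors. HLA-E and HLA-F are also read by receptors of natural killer cells.

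Parts of the promoter module and of the nearby elements were searched for in RefSeq sequences (GRCh38.p14) upstream of the genes. The S box was not searched. RefSeq windows of 300 bases around the start matched 7 of the 9 genes, with a second window for TAP1. None was used for NLRC5 and HLA-E. The stretches shown cover the 200 bases before the start on the gene's own strand, 5′ to 3′, and are shown because the accessible summits fell on or beside them. Capitals mark 4 searched boxes on either strand, which were the Y box (CCAAT), the X2 element of the X box (TGACG), an ISRE-like motif (TTTCNNTTC) and a kappaB-like motif (GGGNNTNNCC).

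HLA-B (chr6:31357180-31357379, minus strand): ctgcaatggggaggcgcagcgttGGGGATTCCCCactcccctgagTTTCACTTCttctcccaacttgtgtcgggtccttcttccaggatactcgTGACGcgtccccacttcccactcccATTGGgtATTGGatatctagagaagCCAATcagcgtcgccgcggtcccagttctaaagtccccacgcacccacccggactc
HLA-C (chr6:31272093-31272292, minus strand): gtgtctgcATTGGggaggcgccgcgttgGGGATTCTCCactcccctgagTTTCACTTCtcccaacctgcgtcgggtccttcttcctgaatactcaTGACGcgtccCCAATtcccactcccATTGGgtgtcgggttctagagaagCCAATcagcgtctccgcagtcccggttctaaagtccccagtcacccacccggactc
HLA-F (chr6:29723234-29723433, plus strand): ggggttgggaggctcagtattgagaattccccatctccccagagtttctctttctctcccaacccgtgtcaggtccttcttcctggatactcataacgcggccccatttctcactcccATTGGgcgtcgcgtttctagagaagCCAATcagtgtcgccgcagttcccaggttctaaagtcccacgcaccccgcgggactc
B2M (chr15:44711317-44711516, plus strand): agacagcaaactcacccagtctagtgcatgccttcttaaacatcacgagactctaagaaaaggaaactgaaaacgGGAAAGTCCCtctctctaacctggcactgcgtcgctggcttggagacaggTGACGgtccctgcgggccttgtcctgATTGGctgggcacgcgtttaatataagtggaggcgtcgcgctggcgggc
TAP1 (chr6:32853705-32853904, minus strand): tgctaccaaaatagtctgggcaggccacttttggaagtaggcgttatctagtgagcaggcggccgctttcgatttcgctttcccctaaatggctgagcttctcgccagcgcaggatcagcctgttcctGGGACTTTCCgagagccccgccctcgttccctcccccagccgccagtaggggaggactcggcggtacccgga
TAP2 (chr6:32838740-32838939, minus strand): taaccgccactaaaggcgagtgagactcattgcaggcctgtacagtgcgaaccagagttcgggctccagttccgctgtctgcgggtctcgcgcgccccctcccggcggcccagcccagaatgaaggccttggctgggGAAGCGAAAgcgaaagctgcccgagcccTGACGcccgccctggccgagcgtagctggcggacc

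HLA-B and HLA-C held all 4 boxes, which was so for 23 of the 22199 windows of protein-coding genes (0.104%). In HLA-B the kappaB-like match GGGGATTCCCC is made of overlapping matches on both strands, followed by the ISRE-like TTTCACTTC. In HLA-C the same order was found, with the kappaB-like GGGATTCTCC. An X2 box with a reversed Y box 20 to 30 bases on in the same orientation occurred in 122 windows (0.55%), a spacing chosen after the matches were seen. It was present in HLA-B and HLA-C, with 25 bases from the first base of one box to that of the other, and in B2M with 26. HLA-F had the reversed Y box without the TGACG letters. TAP1 had the kappaB-like GGGACTTTCC. Outside the stretch shown, its window also held a reversed Y box at −249 to −245 bases and a second kappaB-like match after the start. TAP2 had an X2 box and an ISRE-like GAAGCGAAA. TAPBP held only the kappaB-like GGGGATTTCC within its window. Alone, the boxes were found in 34.7% (Y), 27.9% (X2), 6.64% (ISRE-like) and 24.8% (kappaB-like) of windows. A match is a string of letters, not a bound site.

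The HLA promoters are close relatives. The 300 bases of HLA-B and HLA-C were 89.7% identical and their longest shared run was 25 bases, while HLA-F was 80.0% identical to HLA-B and 80.3% to HLA-C, with longest shared runs of 18 and 19 bases. B2M and the TAP1, TAP2 and TAPBP windows were at most 54.3% identical to any HLA window in the alignments. How the authors placed reads that match several HLA copies, or alleles of ARP1 that differ from the reference, is not given in the sources used here, so values at the HLA genes are less certain than those at the other members.

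List length and background differed between the genotypes, and their part in the calls was not tested. The lists held 33055 to 37314 peaks in the knockout against 54443 to 56048 in the wild type. The background pileup recovered from the authors' fold values was 2.31 ± 0.26 reads in the knockout against 3.52 ± 0.36 in the wild type (mean ± SD, n = 3), and the weakest listed peak had a pileup of 9 to 10 against 11 to 12. The weakest listed fold was 3.09 to 3.31 in the knockout against 2.72 to 2.92 in the wild type. KDM6A itself kept a peak over its start in all 6 lists, with folds of 11.4, 15.1 and 12.6 in the knockout against 8.76, 13.6 and 10.7 in the wild type, so accessibility does not check the knockout. Of 9 plasma cell markers 8 had a region called in all 6 lists over or within 1 kb of the gene, all but SLAMF7, against 0 of 4 myeloid and 0 of 3 epithelial markers. The same held for 2 of 5 B cell markers (PAX5 and BCL6) and 3 of 4 T cell markers (CD2, CD3E and CD8A). How many of all protein-coding genes have such a region was not counted.

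The start of each of the 9 genes lay in a merged region called in all 6 lists. The same held for 57.8% of the 15843 protein-coding genes in the RefSeq promoter table. At TAPBP the summits of that region lay up to 1264 bases after the start. For NLRC5 and HLA-E the start was taken as the lower-coordinate end. The strongest of these regions had folds over background near 20 (TAP1 and B2M), and the weakest near 7 (HLA-F). Folds are the peak caller's own for each list. Over regions called in all 6 lists their median was 8.70 to 9.83 in the knockout against 11.1 to 13.1 in the wild type, so folds describe a list and are not compared between genotypes.

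**Figure D1:**
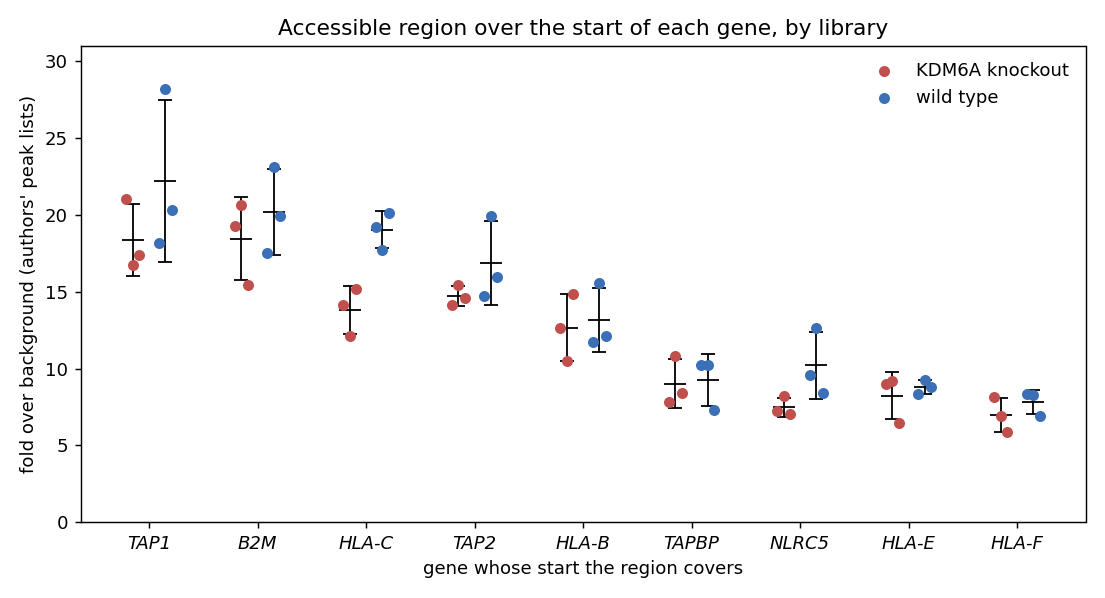
Fold over background (authors' values, linear axis) of the region over each gene's start, with 1 point per library, red for knockout and blue for wild type; bars are mean ± SD, n = 3. Genes are ordered by their mean rank among regions called in all lists, from TAP1, whose folds ran from 16.7 to 28.2, to HLA-F, whose folds ran from 5.89 to 8.33.

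To compare genotypes, each list's regions were ranked by the −log10 p-value among the 23589 regions called in all 6 lists. This shared percentile uses the same regions in every list, whatever its length. The set itself does depend on list length, because a region missing from any list is not ranked. With lists of equal length it held 20727 regions. A percentile of 50 is the median shared region. Among the 9154 protein-coding genes with a start region called in all 6 lists, the median over starts was 69.0, averaged over the 6 libraries. TAP1 (85.8), B2M (84.4), HLA-C (76.8) and TAP2 (75.4) lay above it. HLA-B (62.8), TAPBP (40.2), NLRC5 (36.5), HLA-E (35.0) and HLA-F (25.7) lay below it. The value for TAP1 was at or above that of 75.7% of these coding starts and the value for HLA-F at or above 9.01%. Coding genes without such a start region have no shared percentile and are left out of both shares. Neighbours in this order did not part: in each of the 8 neighbouring pairs the ranges over the 6 libraries overlapped.

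NLRC5, the transactivator (chromosome 16, 56989557 to 57083520), had a start region of moderate strength. The region at 56989103 to 56990563 had folds of 7.22, 8.20 and 7.02 in the knockout against 9.61, 12.6 and 8.38 in the wild type. Its summits lay within 47 bases before and 69 bases after the start. Within each full list it stood at percentiles of 52.0, 58.9 and 57.3 in the knockout against 72.3, 76.8 and 65.1 in the wild type. Full-list percentiles fall when a list lacks weak peaks, as the shorter knockout lists do. On the shared scale the values were 33.8, 36.4 and 35.2 against 39.1, 47.5 and 27.0, and the genotypes overlapped, with wild-type replicate 3 the lowest of all. The start regions whose shared percentiles stayed nearest to those of NLRC5 over the 6 lists were those of MSRB3, ABHD2 and CYSTM1, within 6.59, 7.28 and 7.84 points in every list.

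Inside NLRC5 the picture was mixed, with 7 regions over the gene. Regions at 57041124 to 57042963 and 57060991 to 57062897 were called in all 6 lists. The first had folds of 5.89 to 8.85 in the knockout against 8.26 to 11.5 in the wild type, and the second 5.42 to 7.58 and 5.77 to 7.78. Their shared percentiles overlapped between genotypes. The region at 57014691 to 57015049, about 25.3 kb into the gene, was WT-only, meaning called in all 3 wild-type and in no knockout list. Its wild-type folds were 5.34, 5.35 and 5.87, from summit pileups of 24, 21 and 27 reads.

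Regions at 57039122 to 57039788 and 57071843 to 57072549, also inside NLRC5, had a peak in every wild-type library and in 1 knockout library each. For the first of them the wild-type folds were 7.47, 7.29 and 5.03, and knockout replicate 1 had 4.21. For the second they were 6.83, 8.02 and 8.17, and knockout replicate 2 had 4.92. Both regions were thus listed in 4 of the 6 libraries. The remaining region inside the gene, at 57049600 to 57050340, was called in 2 wild-type lists. Of the 7 regions outside the gene, 1 was called in all 6 lists. The others were called in fewer lists. Of these, 5 lay upstream, called in 1 to 4 lists with folds of 3.42 to 8.02. The remaining 1 lay inside the neighbour CPNE2 at 57112411 to 57112916, called in knockout replicates 1 and 2 only (folds of 4.82 and 4.92). Downstream, the region over the CPNE2 start (57092112 to 57093386) had knockout folds of 6.92, 8.85 and 5.89 and wild-type folds of 5.13, 7.78 and 7.33. Its shared percentile was 31.4 ± 10.2 in the knockout against 14.1 ± 7.06 in the wild type (SD, n = 3), higher in every knockout list (two-sided exact permutation p = 0.1, the smallest that 3 against 3 libraries allow). Every region whose genotypes do not overlap gets this p-value, here and below, so it adds nothing to that call. With percentiles of the full lists the difference was 0.60 and the genotypes overlapped.

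**Figure D2:**
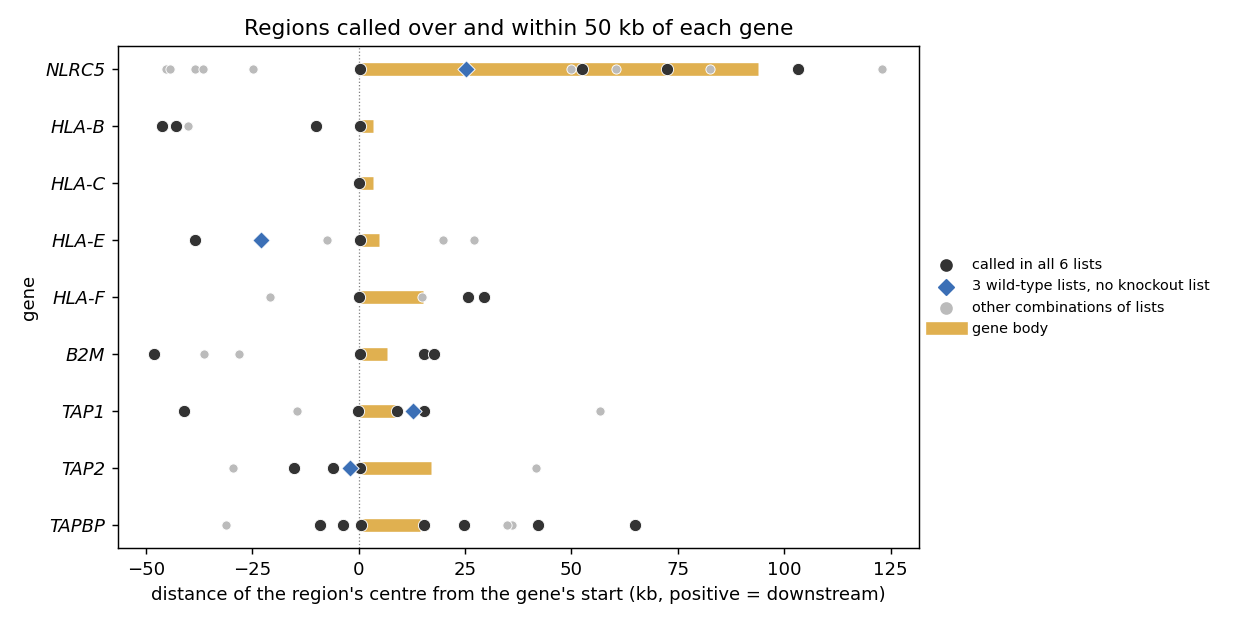
Regions over and within 50 kb of each gene, placed by the distance of their centre from the gene's start in kb, along the direction of transcription; gold bars are gene bodies, and symbols give the lists that called the region. Each start carries a region called in all 6 lists, and the 3 WT-only regions lie upstream of HLA-E, between TAP1 and TAP2 (drawn in both rows) and inside NLRC5.

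On average over the 6 libraries, the classical heavy chain genes HLA-C and HLA-B stood on either side of the median coding start, at 76.8 and 62.8. Single libraries of each gene lay on both sides of it. HLA-C (chromosome 6, 31268749 to 31272092) had a single region in its whole 50 kb neighbourhood, at 31271009 to 31272915. Its folds were 14.1, 12.1 and 15.2 in the knockout against 19.2, 17.7 and 20.1 in the wild type. Although the folds parted, the shared percentiles were 78.2, 63.5 and 82.4 against 82.9, 69.5 and 84.0 and overlapped. In HLA-B (31353875 to 31357179) the start region at 31355853 to 31357919 had folds of 12.6, 10.5 and 14.9 in the knockout against 11.8, 15.6 and 12.2 in the wild type. Its shared percentiles were 72.3, 54.4 and 81.6 against 53.7, 61.4 and 53.1. The knockout mean was 13.4 points higher, and the groups overlapped because knockout replicate 2 lay below wild-type replicate 2. The difference was 6.97 without knockout replicate 3 and 20.02 without knockout replicate 2. The median summit was 30 bases before the start of HLA-B and 38 after that of HLA-C.

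About 9.9 kb upstream of the HLA-B start, a narrow region at 31366715 to 31367531 was called in all 6 lists. Its folds were 9.63, 6.88 and 5.61 in the knockout against 10.04, 14.1 and 11.9 in the wild type. The shared percentile was 32.4 ± 19.9 against 49.6 ± 6.54, and knockout replicate 1, at 55.2, lay above all wild-type libraries. Further upstream, 2 regions at MICA, a stress-induced ligand of natural killer and T cells, were called in all 6 lists with overlapping ranks, and a region beside them, at 31396850 to 31397541, in 1 knockout and 2 wild-type lists.

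HLA-E and HLA-F had the weaker starts among the heavy chain genes. For HLA-E (30489509 to 30494194) the start region at 30489048 to 30490591 had folds of 9.03, 9.18 and 6.45 in the knockout against 8.33, 9.24 and 8.80 in the wild type. Its shared percentiles were 50.7, 44.7 and 28.6 against 29.1, 26.8 and 30.1, so that 2 knockout libraries stood above the wild type and the remaining one within it. The WT-only region at 30466398 to 30466878, 22.9 kb upstream over the pseudogene TMPOP1, had low wild-type folds of 3.84, 4.13 and 3.14, from 17, 16 and 14 reads. For comparison, the weakest fold listed in knockout replicate 1 was 3.31. Of the other HLA-E regions, the one at 30450488 to 30451429 was called in all 6 lists with overlapping ranks. The regions at 30481847, 30509193 and 30516234 were called in 1 knockout list, 1 wild-type list and 2 wild-type lists.

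HLA-F (29723434 to 29738532) had folds of 8.13, 6.88 and 5.89 in the knockout against 8.33, 8.26 and 6.92 in the wild type over its start at 29722958 to 29724283. Downstream of the gene lay 2 stronger regions called in all 6 lists. The first, at 29748247 to 29749886 over the end of the antisense RNA gene HLA-F-AS1, had folds of 10.5 to 10.9 in the knockout against 12.8 to 16.3 in the wild type, and its shared percentiles overlapped. The second, at 29752185 to 29753528 and 29.4 kb from the HLA-F start, had folds of 9.03, 9.83 and 7.30 in the knockout against 13.2, 15.6 and 14.2 in the wild type. Its shared percentiles were 50.7, 49.8 and 38.2 against 62.0, 61.4 and 64.4. Among the 29 regions called in all 6 lists, the ones that could be ranked, this was the only one lower in every knockout list, by 16.4 points (two-sided exact permutation p = 0.1). It overlaps no protein-coding gene, and the pseudogene IFITM4P lies beside it. The remaining HLA-F regions, at 29702146 and 29738016, were called in 4 lists (2 per genotype) and in wild-type replicate 2 alone.

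B2M, the light chain of all class I molecules (chromosome 15, 44711517 to 44718145), lay among regions of mixed strength. The start region at 44710736 to 44713111, which also covers the start of PATL2 in the opposite direction, had folds of 19.3, 20.7 and 15.4 in the knockout against 17.5, 23.1 and 19.9 in the wild type. The shared percentiles were 87.2 ± 3.73 against 81.6 ± 2.65 and overlapped. A region at 44728252 to 44730013, 17.6 kb downstream of the start, was as strong as the start, with folds of 18.4, 22.0 and 14.6 in the knockout against 19.2, 25.0 and 23.3 in the wild type. Of the other 4 regions, those at 44662579 (over the upper end of SPG11) and 44726316 had a peak in all 6. Their folds over the 6 libraries were 18.52 to 27.95 and 4.51 to 7.87. The region at 44683009 inside PATL2 was missing from knockout replicate 1, with folds of 3.93 to 8.51 elsewhere. The region at 44674897 was called in wild-type replicate 3 alone, with a fold of 4.19.

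The transporter genes and the immunoproteasome genes between them share 1 neighbourhood, so that 6 of the 7 regions of TAP1 (32845209 to 32853704) are also regions of TAP2 (32821831 to 32838739). The region at 32852771 to 32855153, over the back-to-back starts of TAP1 and PSMB9, a catalytic subunit of the immunoproteasome, ranked first of the 9 starts on average over the 6 libraries, with a range that overlapped that of B2M. Its folds were 21.1, 16.7 and 17.4 in the knockout against 18.1, 28.2 and 20.3 in the wild type. Shared percentiles of 86.8 ± 6.09 and 84.8 ± 4.69 overlapped. The summits lay at −277 to −153 bases from the TAP1 start, upstream of both kappaB-like matches. That range spans the reversed Y box.

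At the TAP2 start, the region at 32837686 to 32839139 had folds of 14.1, 15.4 and 14.6 in the knockout against 14.7, 19.9 and 15.9 in the wild type. Its shared percentiles were 78.2, 76.7 and 80.8 against 69.1, 76.0 and 71.6, higher in every knockout list by 6.35 points on average (two-sided exact permutation p = 0.1). With percentiles of the full lists the difference was −2.21. The closest values, from knockout replicate 2 and wild-type replicate 2, were 76.7 and 76.0. Between TAP2 and TAP1, the start region of PSMB8, another immunoproteasome subunit, at 32843480 to 32846057 was called in all 6 lists, with overlapping ranks. The region at 32840591 to 32841162, over the lower end of PSMB8, was WT-only with folds of 5.77, 4.62 and 3.98, from 26, 18 and 18 reads. Of the 3 remaining regions, upstream of TAP1 or beyond TAP2, the one at 32893898 was called in all 6 lists with overlapping ranks, and those at 32796745 and 32868087 in 3 lists and in wild-type replicate 2 alone.

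TAPBP (33299694 to 33314078), the tapasin gene, had 10 regions in a gene-rich stretch, 7 of them called in all 6 lists. Its start region at 33312256 to 33314783 had folds of 7.83, 10.8 and 8.42 in the knockout against 10.2, 10.2 and 7.33 in the wild type. The summits lay 17 to 1264 bases after the start, with a median of 1022. The values of this region therefore need not describe the start itself. The shared percentiles were 48.4 ± 8.19 against 32.1 ± 12.4, and they overlapped at knockout replicate 1 and wild-type replicate 1. The broadest region near any of the genes, at 33297285 to 33300304 over the RGL2 start and the lower end of TAPBP, had folds of 12.04, 12.5 and 10.9 in the knockout against 13.5, 16.3 and 14.2 in the wild type. Its shared percentile was higher in every knockout list, by 2.84 points (66.8 ± 2.50 against 64.0 ± 0.76, two-sided exact permutation p = 0.1). The difference was 1.35 without knockout replicate 1, and −6.31 with percentiles of the full lists, whose lengths differ. Regions near ZBTB22, DAXX, PFDN6, WDR46, VPS52 and RPS18, and 1 at 33248070 with no coding gene, were called in all lists and overlapped in rank. The other 3, at 33277539, 33279073 and 33344776, were called in 1, 2 and 5 lists.

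Counted over the 54 regions, 29 (53.7%) were called in all 6 lists, against 31.2% of all merged regions. Of the 36 with a peak in every wild-type library 80.6% were called in all 6, against 59.3% over the genome. WT-only regions numbered 3 of 36, or 8.33%, against 17.3% over the genome. No region was KO-only (called in all 3 knockout and no wild-type list) among the 29 called in all knockout lists, against 0.39% over the genome. The regions called in all 6 lists near the members had a median wild-type fold of 14.7, compared with 11.98 for all such regions. Because regions of a gene cluster share neighbours, these shares describe the 9 genes and carry no test.

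The WT-only calls were at weak regions. The 3 WT-only regions had mean wild-type folds of 3.71 (HLA-E), 4.79 (TAP1 and TAP2) and 5.52 (NLRC5), and no region called in all 6 lists was under 6.38. The 4 regions with a peak in every wild-type library and in 1 or 2 knockout libraries had means of 5.34 to 7.68, which overlap those of regions called in all 6 lists. Among all regions within 5 percentile points of them in the wild-type lists, 52.6%, 43.5% and 35.3% were WT-only. With every list shortened to its strongest 33055 peaks none of the 3 was WT-only, because none was then called in all wild-type lists, and with peaks under a fold of 4 removed, an alternative added after seeing the data, only the NLRC5 call was kept. Of the 9 regions found in a single list, 5 were found in wild-type replicate 2, 1 in wild-type replicate 3 and 3 in knockout lists. Wild-type replicate 2 held 48 of the 54 regions, wild-type replicates 1 and 3 held 39 and 42, and the knockout lists 34 to 37.

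**Figure D3:**
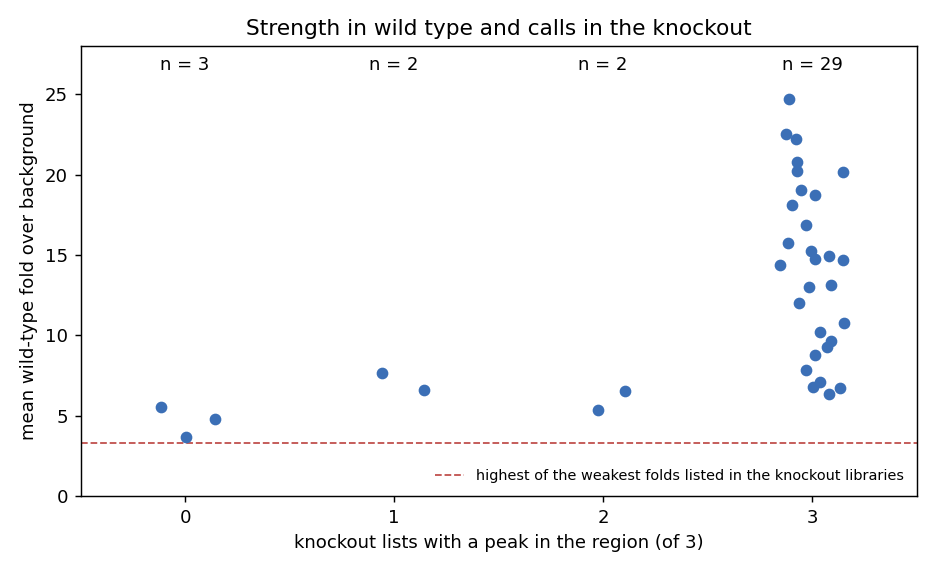
Mean wild-type fold over background (linear axis) of the 36 regions with a peak in every wild-type library, grouped by the number of knockout lists with a peak there; each point is a region, spread sideways for legibility, and the dashed line marks 3.31. Regions missing from 1 or more knockout lists had mean wild-type folds of 3.71 to 7.68.

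On the shared scale 25 of the 29 regions overlapped between genotypes. Every knockout list ranked higher at 3 regions (the starts of TAP2, RGL2 and CPNE2), or 10.3%, against 17.8% of all shared regions, and lower at 1 region (3.45% against 17.3%). The knockout mean was higher at 22 of the 29, and the median difference was 3.75 points, against −0.06 for all shared regions. Of the 29 regions 16 covered the start of a protein-coding gene, or 55.2% against 35.5% of all shared regions. None of the 25 regions called in fewer lists did (2.03% over the genome). The 16 include the starts of NLRC5 and HLA-E, taken as the lower-coordinate end because no promoter window was used for them. The share near the members is therefore not fully like that over the genome. Any other start without a promoter window was not counted, so regions counted as away from starts may cover some. Start regions ranked higher in every knockout list in 24.6% of cases and lower in 13.0%, and other shared regions higher in 14.1% and lower in 19.8%. Near the members the 3 higher regions were all among the 16 at starts and the lower one among the 13 elsewhere. With knockout replicate 1 left out the counts were 8 higher and 3 lower of 30, with 22.6% and 21.9% over the genome. Leaving out any other library gave 4 to 7 higher and 1 to 2 lower, against 21.1% to 23.3% and 20.7% to 23.6% over the genome.

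**Figure D4:**
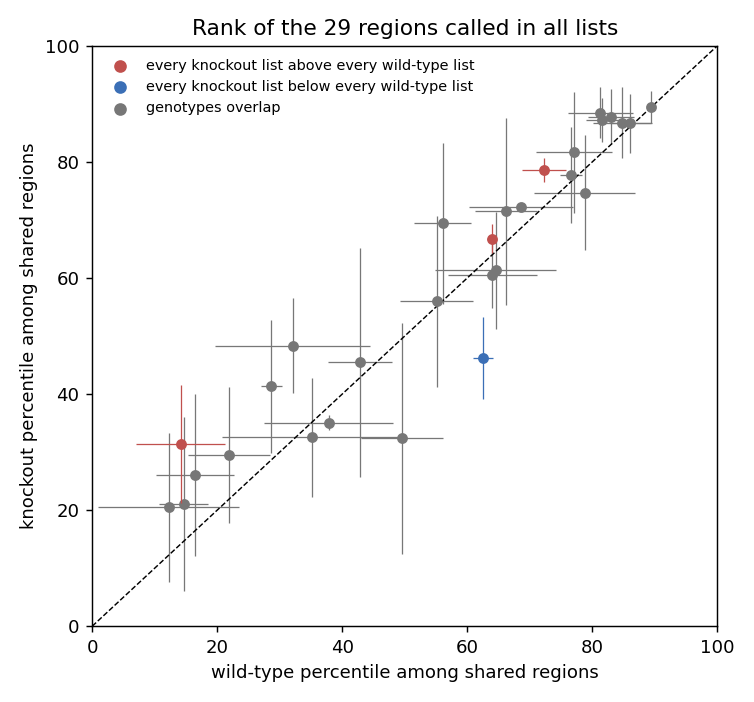
Shared percentile in the knockout against the wild type for the 29 regions called in all lists (mean ± SD, n = 3 per genotype), with the line of equality. Red marks the 3 regions ranked higher in every knockout list, at the starts of TAP2, RGL2 and CPNE2, blue the region downstream of HLA-F ranked lower in every one, and grey the 25 whose libraries overlapped.

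Regions called in all 6 lists were also wider. Near the members their median width was 1752 bases (817 to 3020), close to the 1526 over all such regions, and that of the other 25 was 572 bases (281 to 1097).

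Other genes of class I presentation were followed by calls. Of 12 further pathway genes, 11 had a region called in all 6 lists over the gene or within 1 kb, and HLA-G had no region there. The share of all protein-coding genes by this measure was not counted. WT-only regions within 1 kb were found at PSMB8 (the region between TAP2 and TAP1), at ERAP1, which trims peptides in the endoplasmic reticulum, and at PDIA3, a disulfide isomerase of the loading complex. Wild-type folds were 6.19, 5.35 and 7.12 for the ERAP1 region (chromosome 5, 96868781 to 96869352). For the PDIA3 region (chromosome 15, 43749709 to 43750210) they were 6.41, 7.29 and 6.71. Within 50 kb of these 12 genes 5 of 47 regions were WT-only (10.6%, against 17.3% over the genome). Of their 58 regions 7 are also regions of the members, among them the WT-only region at PSMB8. Of 39 shared regions 9 ranked higher and 4 lower in every knockout list, against 17.8% and 17.3% of all shared regions.

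Genes of factors that act on the promoter boxes were open in every library. All 12 regulators had a region called in all 6 lists over the gene or within 1 kb. Among them were RFX5, RFXAP and RFXANK of the RFX complex, the 3 NF-Y subunits, CREB1, IRF1 and RELA. No share of all protein-coding genes was counted by this measure, and the share for start windows alone was 57.8%. NFYC alone had a WT-only region, inside the gene (chromosome 1, 40763952 to 40764540), with folds of 5.77, 6.08 and 5.24. Within 50 kb of the regulators 7 of 51 regions were WT-only (13.7%, against the same 17.3%). Of 38 shared regions 14 ranked higher and 3 lower in every knockout list, where the shares over the genome were 17.8% and 17.3%, and 24.6% and 13.0% at coding starts.

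Class II genes, which present peptides taken up from outside the cell, had fewer calls. A region called in all 6 lists lay over or within 1 kb of 2 of 12, CIITA and CD74, against 9 of the 9 members. Here too the share of all protein-coding genes was not counted. HLA-DRA had 1 peak within 1 kb, in wild-type replicate 3, with a fold of 3.77. Within 50 kb of the 12 genes 2 of 23 regions were WT-only (8.70%, against 17.3%), with 6 of their 40 regions shared with the TAP neighbourhood. Over the whole 3.59 Mb from HLA-F to TAPBP 9 of 118 regions were WT-only (7.63%), and 7 of 97 (7.22%) without the members' own regions. Of the 94 shared regions in that span 27 ranked higher and 7 lower in every knockout list, beside the same genome shares of 17.8% and 17.3%.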

How the data were processed

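ATAC-seq of ARP1 was represented by 6 peak lists, 3 per genotype, assigned by sample title. The submitters' processing notes name Trimmomatic, FastQC, MultiQC, Bowtie2, MACS2 2.1.2 and GRCh38, with no settings. Each library has its own list. For each peak the deposited lists hold a score, a fold (ratio over background) and p- and q-values as −log10, as the authors' caller wrote them. The mitochondrial peak of each list was left out.

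Peaks sharing at least 1 bp were merged, and the peak with the highest −log10 p-value stood for a list in a region. Folds below 100 were whole multiples of a step (100% of values in every list, tolerance 0.01 of a step), read as (pileup + 1) over (background + 1). Genotypes were compared by calls and by exact permutation of the shared percentile over the 20 labellings. The code was tested on simulated data with Python 3.11.15 and SciPy 1.17.1. The naming rule covered the 9 listed genes, genes of 3 further lists with a WT-only or KO-only region within 1 kb, KDM6A, and the 3 genes with start ranks nearest to NLRC5. Neighbouring genes, markers and other list genes are named outside it, chosen after their values were seen. Genes and lists were chosen with earlier results of these data known. Alternatives were equal list length, a −log10 q-value of at least 5, windows of 10 and 100 kb, an overlap of 100 bp, other ranks, a replicate block, each library left out and, added after seeing the data, a fold of at least 4.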

Additional observations from a re-analysis of the deposited data

How the results depend on the processing

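The counts of calls were small, so single regions moved them. In place of 3 of 36 (17.3% over the genome), WT-only regions numbered 0 of 30 with lists of equal length (7.24%). At a fold of at least 4 they numbered 1 of 34 (15.5% over the genome). With 1 library left out they numbered 3 to 5 (5 without wild-type replicate 1), against 19.9% to 22.4% over the genome. KO-only regions numbered 0 throughout, except 1 of 31 without knockout replicate 3 (0.907% over the genome). Windows of 10 kb gave 27 regions, with 0 of 20 shared regions ranked lower in every knockout list, against 17.3% of all shared regions. Windows of 100 kb gave 82 regions, 57 with a peak in every wild-type library and 44 in all 6 lists. Of these 44 regions, 4 ranked lower and 10 higher, against 17.3% and 17.8% of all shared regions. With 1 library left out 1 to 3 regions ranked lower and 4 to 8 higher, of 29 or 30 shared regions. The shares over the genome were then 20.7% to 23.6% lower and 21.1% to 23.3% higher. Regions in all numbered 49 to 54. With percentiles of the full lists, whose lengths differ, 8 regions ranked lower and 0 higher (47.3% and 4.11% of all shared regions), the TAP2 start turned to −2.21 points and the region over the RGL2 start to −6.31, and the CPNE2 start fell to 0.60. With the same-numbered libraries taken as pairs (replicate block) 2 regions were lower and 6 higher in all 3 pairs, against 25.0% of all shared regions in either direction. Deviations of same-numbered libraries correlated at −0.0283, −0.00436 and −0.175, and those of differently numbered libraries at −0.0954 to 0.113. With 3 libraries per genotype these values cannot tell whether same-numbered libraries were prepared together. The WT-only call at HLA-E also ended at a −log10 q-value of at least 5. The mean difference at the region downstream of HLA-F was −17.39 to −11.57 points with 1 library left out and −19.71 with full-list percentiles. Ranking by fold returned the same differences as ranking by p-value, so it is no separate check. Whether depth accounts for the WT-only calls was not tested. Their summits held 14 to 27 reads in the wild type, over a mean background pileup of 3.52. The least listed pileup in the knockout was 9 to 10, over a mean background of 2.31. The read counts are therefore not on one scale.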
